A study of Mus musculus with 2 samples.

Results

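Retnlg-high neutrophils are the blood neutrophils with the most Retnlg mRNA among those that passed the limits below. They were selected as the top 25% of cells by Retnlg UMIs (unique molecular identifiers, which count captured mRNA molecules) per 10000 UMIs of the cell, within each library. The ranking was made among base neutrophils, that is, cells with at least 1000 UMIs, at most 10% mitochondrial UMIs and at least 5% of UMIs from S100a8 and S100a9. Base neutrophils also had Camp, Ngp and Ltf together under 20 per 10000, Ifit1, Ifit2, Ifit3, Ifit3b and Rsad2 together under 15 per 10000, and fewer than 4 UMIs of Ppbp and Pf4. This gave 1420 members among 5678 base neutrophils and 17123 cells in the WT library, and 1373 members among 5492 base neutrophils and 17645 cells in the APP/PS1 library. The members were compared with the middle cells, the next 50% of the same ranking (2838 WT and 2747 APP/PS1 cells), and levels are also given for the lowest cells, the last 25% (1420 and 1372). Retnlg UMIs chose the members, so Retnlg itself and the other genes of the rule are described and are not results.

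The study profiled neutrophils enriched from blood by 10x single-cell RNA sequencing, with 1 library from WT C57BL/6J mice and 1 from APP/PS1 mice. APP/PS1 mice are transgenic for Alzheimer's disease mutant forms of APP and presenilin 1, and both groups were female and 7 months old. Enrichment was by a kit that removes other blood cells, and the promoters that drive the transgenes were not given in the sources used here. Each library pooled blood cells of 3 mice, so each genotype has 1 sample. No test between samples was therefore possible, and no p-value is given. The values of both libraries are given side by side, and all intervals are 95% intervals that cover counting error only, exact except where stated. A gene was called higher or lower in Retnlg-high cells where its log2 ratio to the middle cells was at least 0.25 in that direction in both libraries, and genes with enough UMIs for a call are termed tested. Levels are given as CPM, the UMIs of a gene in 1000000 UMIs summed over a set of cells, with Retnlg UMIs left out of the total. The libraries held 92458623 UMIs in WT and 84870864 in APP/PS1, of which the members held 4623828 and 4638490. The libraries shared 83 cell barcodes, but no member's barcode was a member's barcode in the other library.

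Retnlg encodes resistin-like gamma, a small secreted cysteine-rich protein that mouse neutrophils and bone marrow cells express. Neutrophils fill their granules in an ordered way while they mature in the bone marrow, first azurophil, then specific, then gelatinase granules, and secretory vesicles last. After release they circulate for a short time and age, and on activation they switch on NF-kB targets, cytokines and chemokines.

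Retnlg lies at chr16:48872621-48874496, plus strand of mm10 (GENCODE M21), with 4 exons, in a row with its paralogues Retnlb (chr16:48816856-48818892, plus strand) and Retnla (chr16:48842551-48844461, plus strand), while Retn, which encodes resistin, lies on chromosome 8 and starts at 3655770. The 250 bases before the RefSeq transcription start are shown for Retnlg and Retnla, a pair of neighbours with very different counts here, and for Ly6g, Lcn2 and Mmp8, which were among the 12 genes highest in Retnlg-high cells (RefSeq, GRCm38.p6). Each is written 5′ to 3′ on the strand of the gene. Capitals mark matches to TTGCNNAA on either strand, a form of the letters bound by C/EBP factors, which drive granulocyte development.
Retnlg (chr16:48872358-48872607, plus strand): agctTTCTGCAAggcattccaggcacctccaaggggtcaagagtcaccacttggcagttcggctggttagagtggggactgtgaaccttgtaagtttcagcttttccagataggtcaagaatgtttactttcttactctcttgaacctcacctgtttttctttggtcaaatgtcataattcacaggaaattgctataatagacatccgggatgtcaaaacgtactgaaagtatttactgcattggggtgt
Retnla (chr16:48842359-48842608, plus strand): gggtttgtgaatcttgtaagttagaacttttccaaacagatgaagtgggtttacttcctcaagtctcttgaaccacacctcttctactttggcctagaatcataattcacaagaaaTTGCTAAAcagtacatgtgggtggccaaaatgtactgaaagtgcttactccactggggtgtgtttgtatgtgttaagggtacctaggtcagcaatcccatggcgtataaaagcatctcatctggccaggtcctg
Ly6g (chr15:75155011-75155260, plus strand): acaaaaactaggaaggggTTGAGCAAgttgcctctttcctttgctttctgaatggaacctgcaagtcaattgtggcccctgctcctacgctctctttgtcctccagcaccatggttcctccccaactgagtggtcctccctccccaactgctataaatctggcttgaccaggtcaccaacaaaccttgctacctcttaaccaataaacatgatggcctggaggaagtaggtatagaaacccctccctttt
Lcn2 (chr2:32387740-32387989, minus strand): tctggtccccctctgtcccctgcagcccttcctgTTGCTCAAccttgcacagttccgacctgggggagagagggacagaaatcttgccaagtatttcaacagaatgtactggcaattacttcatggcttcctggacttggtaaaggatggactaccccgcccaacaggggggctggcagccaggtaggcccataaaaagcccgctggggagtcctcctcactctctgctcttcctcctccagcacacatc
Mmp8 (chr9:7558179-7558428, plus strand): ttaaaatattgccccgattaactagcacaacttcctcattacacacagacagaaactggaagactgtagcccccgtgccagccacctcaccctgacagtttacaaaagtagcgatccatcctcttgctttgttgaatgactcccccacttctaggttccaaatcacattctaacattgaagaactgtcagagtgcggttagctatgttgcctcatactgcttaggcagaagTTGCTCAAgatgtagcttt

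Each of these windows held 1 match, which began 246 bases before the start in Retnlg, 134 in Retnla, 232 in Ly6g, 216 in Lcn2 and 19 in Mmp8. Ly6g has 2 RefSeq windows, and the first listed is shown. Of all 32851 RefSeq windows of this length, 9.56% held TTGCNNAA. Among the 12 highest genes, 10 had a window, and TTGCNNAA was in those of Ly6g, Lcn2, Stfa1 and Mmp8. Of the other 4 motifs searched on both strands, AGGAAG was in the windows of 8 of the 10 genes (29.5% of all windows), GAGGAA in 9 (23.3%), TTNNGNAA in 8 (36.8%) and TATAAA in 3 (12.4%). AGGAAG and GAGGAA overlap in letters, and TTGCNNAA and TTNNGNAA can lie on the same bases. A match is a run of letters and not a measured binding site. In a global alignment, Retnlg and Retnla shared 135 of 176 aligned bases (76.7%), against 58.1% for Retnlg and Lcn2.

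Retnlg varied over a wide and continuous range among base neutrophils, with no gap between members and other cells. Its level ran from 0 to 870.3 UMIs per 10000 in WT with a median of 94.5, and from 0 to 899 in APP/PS1 with a median of 85.3. In WT the lowest member had 174.216 and the highest middle cell 174.201 per 10000. In APP/PS1 these were 160.397 and 160.338. The median over members was 257 (WT) and 236 (APP/PS1), and over the lowest cells 27.6 and 24.0. Among the members themselves, the middle 50% of cells lay between 205 and 329 in WT and between 189 and 318 in APP/PS1. These values describe the selection and are not a result.

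**Figure D1:**
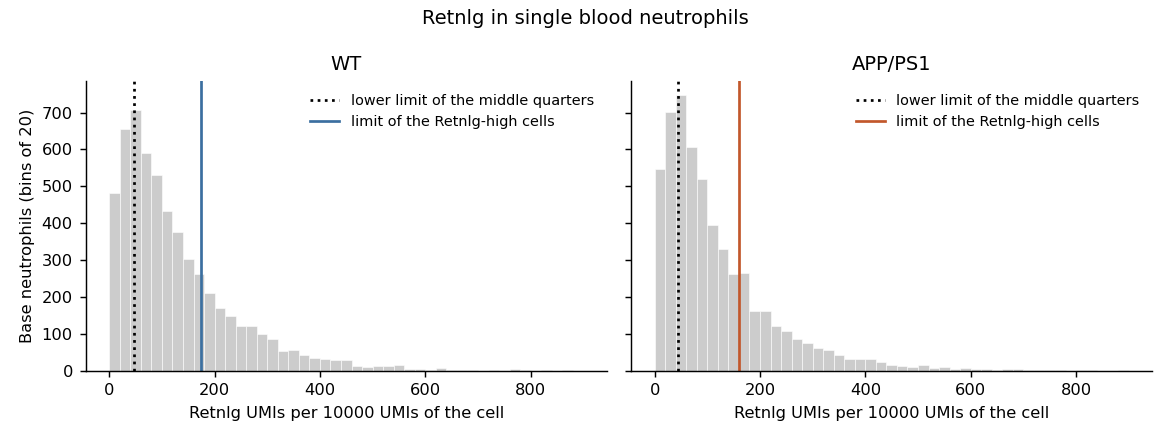
Number of base neutrophils (vertical axis, bins of 20) by Retnlg UMIs per 10000 UMIs of the cell (horizontal axis) in the WT and APP/PS1 libraries. The solid line is the limit above which cells are Retnlg-high, 174 in WT and 160.4 in APP/PS1, and the dotted line is the lower limit of the middle cells, 47.5 and 43.9, and neither falls in a dip of the distribution.

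The ranking held in molecules that had not been used for it. When each cell's UMIs were split at random into 2 parts and members were selected on the first part, their median Retnlg level in the second part was 252 per 10000 in WT, against 93.3 in middle cells and 28.5 in lowest cells. In APP/PS1 the levels were 238, 84.3 and 24.9. Of the members selected on the first part, 1180 of 1420 in WT and 1134 of 1373 in APP/PS1 were again in the top 25% of the second. B cells, which should lack Retnlg, also had some, and its source was not tested. They had 101 CPM of Retnlg in WT (288 cells, median 4728 UMIs) and 129 in APP/PS1 (340 cells, median 5775 UMIs). The lowest cells among base neutrophils had 2802 and 2478 CPM, far above the level in B cells, and a median of 2312 and 2489 UMIs. For Retnlg these levels count all UMIs. With every cell thinned to 1000 UMIs, 86.9% of the lowest cells in WT and 84.0% in APP/PS1 still had a Retnlg UMI, against 12.5% and 11.2% of B cells. Unthinned, 94.4% and 95.6% of the lowest cells had one.

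The other resistin family members were rare. Retnla had 0 UMIs in the members of both libraries, which allows a level of up to 0.668 CPM in WT and 0.665 in APP/PS1 at 3 counts. Retnlb, a goblet cell gene in the gut, had 50 UMIs in the members, 57 in the middle cells and 7 in the lowest cells of WT, and 42, 25 and 10 in those of APP/PS1. Its log2 ratio of members to middle cells was 1.24 in WT (95% interval 0.66 to 1.81) and 2.07 in APP/PS1 (1.32 to 2.84), but it had too few UMIs to be tested, and reads of a close paralogue of Retnlg are uncertain. Retn had 27.4 CPM in members against 27.2 CPM in middle cells (WT) and 29.9 against 30.6 CPM (APP/PS1), with a log2 ratio of 0.01 (WT) and -0.03 (APP/PS1).

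The members had slightly more UMIs than the middle cells. The median was 2941 UMIs in members, 2648 in middle cells and 2312 in the lowest cells of WT, and 3078, 2795 and 2489 in APP/PS1. A median of 996 genes was detected per member in WT and 1030.0 in APP/PS1. At 1000 UMIs per cell, members had fewer genes than middle cells, with medians of 465 against 500.0 in WT and 468 against 500.0 in APP/PS1. S100a8 and S100a9, the calprotectin subunits, which every base cell had to express above a minimum and which are thus no check of identity, took up 20.1% of member UMIs in WT and 18.3% in APP/PS1, against 14.3% and 12.7% of middle cell UMIs. Csf3r, a receptor that neutrophils carry and that the rule did not use, had 2076 CPM in members against 2289 CPM in middle cells (WT) and 2065 against 2434 CPM (APP/PS1). The median log2 ratio of members to middle cells over all 4938 genes tested was -0.18 in WT and -0.17 in APP/PS1, the level against which single genes are read.

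The summed markers of monocytes, NK cells, T cells and red cells were lower in the members than in the middle cells of both libraries, while those of B cells differed little in APP/PS1 and none was called. Their part in the results was not tested, beyond the values given for cells without them. Cells with at least 2 UMIs of the monocyte genes Ccr2, F13a1, Ms4a4c, Ms4a6c, Cx3cr1 and Ace made up 3.45% of members (2.56% to 4.54%) and 10.9% of middle cells in WT. In APP/PS1 they made up 2.69% (1.90% to 3.70%) and 6.66%. At 1000 UMIs per cell, 6.34% of members and 12.1% of middle cells in WT had any UMI of these genes, and 5.03% and 7.28% in APP/PS1. The middle cells with 2 such UMIs were deep, with a median of 8936 UMIs in WT and 8504 in APP/PS1. The 11 monocyte markers together had 758, 1519.7 and 2081 CPM in members, middle cells and lowest cells of WT and 755, 1128 and 1405 CPM in those of APP/PS1. Their most abundant gene in the members was Nr4a1 in WT (254 CPM) and Ly6c2 in APP/PS1 (263 CPM), both of which neutrophils also express, and none was at 0.

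The 8 haemoglobin and red cell markers had 5350.1, 9543 and 19596 CPM in members, middle cells and lowest cells of WT and 899, 9308 and 8726 CPM in those of APP/PS1, led by Hbb-bs. Car1 was at 0 in the members of both libraries, and Slc4a1 was at 0 in those of APP/PS1. The 8 B cell markers had 98.8, 159 and 1084 CPM in members, middle cells and lowest cells of WT and 134, 152 and 197 CPM in those of APP/PS1, led by Ighm, with Ighd at 0 in the members of WT. The 7 NK cell markers had 70.6, 157 and 315 CPM in members, middle cells and lowest cells of WT and 114, 218 and 542 CPM in those of APP/PS1, led by Gzma. The 8 T cell markers had 8.24, 21.2 and 44.2 CPM in members, middle cells and lowest cells of WT and 11.7, 30.6 and 53.4 CPM in those of APP/PS1, led by Cd3g, with Cd4 at 0 in the members of both libraries. The 8 platelet markers had 564, 459.7 and 538 CPM in members, middle cells and lowest cells of WT and 670.3, 566 and 659.7 CPM in those of APP/PS1, led by Nrgn. The 6 basophil and mast cell markers summed to 1.11 CPM in the members of WT and 1.11 CPM in those of APP/PS1, with Ms4a2 and Fcer1a at 0 in both. The 6 eosinophil markers summed to 10.7 and 13.7 CPM, with Epx, Prg2 and Il5ra at 0 in both. The 5 azurophil granule genes of immature neutrophils summed to 5.57 and 5.10 CPM, with Elane and Ctsg at 0 in both. Results are also given for marker-free cells, a choice made after the data had been seen. These exclude cells with at least 2 UMIs of the 6 monocyte genes, 2 UMIs of 10 lymphocyte genes or 50 haemoglobin UMIs, and were ranked again, which left 1247 members in WT and 1256 in APP/PS1.

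Ly6g, Mgst2, Wfdc21, Lcn2, Stfa1 and Mmp8 led the genes that were higher in Retnlg-high cells. Of 4938 genes with at least 200 UMIs in members and middle cells of each library, 104 were called higher (2.11% of those tested). In 90 of these the lowest cells lay below the middle cells in both libraries. Only 19 of the 104 reached a log2 ratio of 0.5 in both libraries, and 1, Ly6g, reached 1. The 12 highest were Ly6g, Mgst2, Wfdc21, Lcn2, Stfa1, Mmp8, Ckap4, Mov10, Cd177, Scrg1, 9830107B12Rik and Ceacam10, and each was also called in marker-free cells.

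Ly6g, the surface protein by which mouse neutrophils are sorted, stood first (chr15:75155240-75159126, plus strand). It had 315 CPM in the members, 139 CPM in the middle cells and 58.1 CPM in the lowest cells of the WT library, and 264, 116 and 77.1 CPM in those of the APP/PS1 library. The log2 ratio of members to middle cells was 1.18 in WT (95% interval 1.08 to 1.28) and 1.19 in APP/PS1 (1.07 to 1.30), and 1.04 (WT) and 1.10 (APP/PS1) among marker-free cells. Members had 2.26 times the Ly6g mRNA of middle cells in WT and 2.28 times in APP/PS1. Lcn2, which binds bacterial siderophores and is stored in specific granules, had 2463 CPM in the members, 1466 CPM in the middle cells and 909 CPM in the lowest cells of the WT library, and 1999.8, 1153 and 837 CPM in those of the APP/PS1 library (chr2:32384633-32388252, minus strand). Its log2 ratio was 0.75 in WT (95% interval 0.71 to 0.78) and 0.79 in APP/PS1 (0.76 to 0.83). Wfdc21, a small secreted protein with a WAP domain, had 1492 CPM in the members, 866 CPM in the middle cells and 536 CPM in the lowest cells of the WT library, and 1335, 779 and 586 CPM in those of the APP/PS1 library. Mmp8, the neutrophil collagenase, had 767 CPM in the members, 464 CPM in the middle cells and 288 CPM in the lowest cells of the WT library, and 697, 435 and 280.1 CPM in those of the APP/PS1 library (chr9:7558456-7568485, plus strand), with a log2 ratio of 0.72 in WT (95% interval 0.66 to 0.78) and 0.68 in APP/PS1 (0.62 to 0.75). Ly6g, Lcn2, Wfdc21 and Mmp8 stepped up from the lowest cells to the middle cells to the members in each library.

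Cd177, another glycolipid-anchored protein of the neutrophil surface, had 99.7 CPM in the members, 65.0 CPM in the middle cells and 41.4 CPM in the lowest cells of the WT library, and 104, 50.8 and 35.0 CPM in those of the APP/PS1 library. Its log2 ratio was 0.62 in WT (95% interval 0.45 to 0.79) and 1.03 in APP/PS1 (0.85 to 1.21), intervals that do not overlap, but the difference between the libraries was not tested. Mgst2, a glutathione transferase that can make leukotriene C4, was much less abundant, at 26.3 CPM in members against 14.4 CPM in middle cells (WT) and 26.6 against 13.3 CPM (APP/PS1), and the ratio nearer 0, a log2 of 0.87 in WT, was second to that of Ly6g. Stfa1, a stefin that inhibits cysteine proteases, had 139 CPM in members against 74.8 CPM in middle cells (WT) and 221 against 137 CPM (APP/PS1), but the stefin A genes are near-identical copies and their separate counts are uncertain. Ckap4, a membrane protein of the endoplasmic reticulum, had a log2 ratio of 0.65 (WT) and 0.68 (APP/PS1), and Mov10, an RNA helicase, one of 0.68 (WT) and 0.62 (APP/PS1). Ceacam10, a secreted member of the carcinoembryonic antigen family, had a ratio of 0.61 (WT) and 0.80 (APP/PS1). Scrg1 and 9830107B12Rik had ratios between 0.61 and 0.66 over both libraries.

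**Figure D2:**
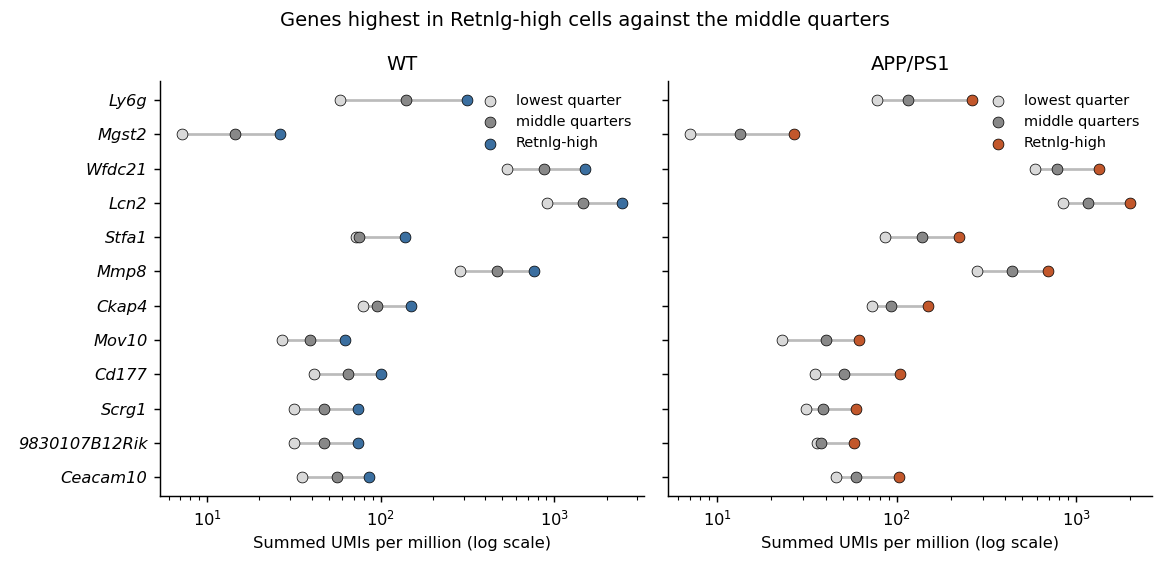
Levels of the 12 genes highest in Retnlg-high cells, in CPM (log scale), in the lowest cells, the middle cells and the Retnlg-high cells of each library. In every row the Retnlg-high cells lie farthest to the right, as for Lcn2 with 2463 (WT) and 1999.8 CPM (APP/PS1).

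Granule genes were higher only in part. Of the 9 gelatinase granule genes, all tested, 3 were called higher (Mmp8, Mmp9 and Padi4), where 2.11% of all genes were, and none lower, with a median log2 ratio of 0.21 (WT) and 0.20 (APP/PS1), above the median of all genes. Mmp9, the gelatinase itself, had 1914 CPM in members against 1522 CPM in middle cells (WT) and 1724 against 1389 CPM (APP/PS1), and in marker-free cells its log2 ratio was 0.16 (WT) and 0.22 (APP/PS1), under the limit. Padi4, the enzyme that citrullinates histones in extracellular traps, had a ratio of 0.36 (WT) and 0.31 (APP/PS1) and also lost its call in marker-free cells, at 0.13 (WT) and 0.24 (APP/PS1), which left Mmp8 alone of the list. Of 12 specific granule genes 9 were tested, of which Lcn2 and Cd177 were higher and Cybb and Chil3 lower, where 2.11% of all genes were higher and 25.0% lower. The median log2 ratio of the list was 0.08 (WT) and 0.04 (APP/PS1). Some of these calls depended on the cells with other markers. Cybb, the catalytic subunit of the NADPH oxidase, had 153 CPM in members against 349 CPM in middle cells (WT) and 139 against 247 CPM (APP/PS1), with a log2 ratio of -1.19 (WT) and -0.83 (APP/PS1), but in marker-free cells the ratio was 0.39 (WT) and 0.63 (APP/PS1), so it was called higher there. Lyz2, lysozyme, was not called at 0.10 (WT) and 0.50 (APP/PS1) and was higher in marker-free cells, at 0.49 (WT) and 0.66 (APP/PS1). Chil3, a chitinase-like lectin, was too rare in marker-free cells to be tested. Among marker-free cells 4 of 8 specific granule genes were thus higher and none lower, against 1.71% of all 4026 genes tested higher (69 genes) and 9.39% lower. Their median log2 ratio was 0.27 and 0.36, where that of all genes was -0.10 and -0.11. Camp, Ngp and Ltf, the other specific granule genes, were limited by the selection. Their levels are a description. Camp had 6.46 CPM in members against 4.72 CPM in middle cells (WT) and 14.2 against 10.3 CPM (APP/PS1), Ngp 67.5 CPM in members against 22.0 CPM in middle cells (WT) and 66.5 against 18.2 CPM (APP/PS1) and Ltf 2.89 CPM in members against 3.07 CPM in middle cells (WT) and 5.76 against 5.41 CPM (APP/PS1), and the intervals of the log2 ratios of Camp and Ltf included 0 in both libraries.

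Some stefins, 2 of 5 S100 genes tested and 1 of 3 WAP genes were higher in the members. In the S100 list 1 gene was lower, where 25.0% of all genes were. Of 5 stefin A genes and neighbours tested, Stfa1, Stfa2l1 and Cstdc4 were higher, where 2.11% of all genes were, and none lower, with a median log2 ratio of 0.36 (WT) and 0.60 (APP/PS1). In marker-free cells Stfa2l1 lost its call, at 0.18 (WT) and 0.20 (APP/PS1), and the median was 0.18 and 0.47. Cstdc4 had 744 CPM in members against 534 CPM in middle cells (WT) and 1018 against 674 CPM (APP/PS1). S100a6, a small calcium-binding protein, had 10232 CPM in members against 7738 CPM in middle cells (WT) and 8779.8 against 6405 CPM (APP/PS1), with a log2 ratio of 0.40 (WT) and 0.46 (APP/PS1). S100a11 was also called higher at 0.29 (WT) and 0.29 (APP/PS1), but in marker-free cells it lay at 0.08 (WT) and 0.14 (APP/PS1), under the limit. S100a4, which monocytes express more than neutrophils, was lower at -1.97 (WT) and -1.56 (APP/PS1) and lay at -0.12 (WT) and -0.06 (APP/PS1) in marker-free cells. Of the 3 WAP genes Wfdc21 was called, and Slpi and Wfdc17 were not. The study's list of 50 neutrophil maturation genes was used on these same samples and is no independent evidence. It also includes Retnlg, which chose the members and was not tested. Of the other 49 genes, all tested, 11 were higher, where 2.11% of all genes were, and none lower. The median log2 ratio of the tested genes of this list was 0.09 (WT) and 0.04 (APP/PS1). In marker-free cells 5 were higher (S100a6, Mmp8, Rdh12, Timp2 and Cstdc4) and 2 were lower (Dusp1 and Il1b), where 1.71% of all genes were higher and 9.39% lower, and the median was -0.01 and -0.04. Timp2, an inhibitor of matrix metalloproteinases, had 320.3 CPM in members against 225 CPM in middle cells (WT) and 301 against 202 CPM (APP/PS1), and Rdh12, a retinol dehydrogenase, 283 CPM in members against 209 CPM in middle cells (WT) and 178 against 108 CPM (APP/PS1).

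Many more genes were lower than higher in Retnlg-high cells, and the number fell when cells with monocyte genes were left out. In all base cells 1233 of 4938 genes were called lower (25.0%), and 87 of them by at least 1 on the log2 scale. The limits lay evenly around 0, while the median log2 ratio of all tested genes was -0.18 (WT) and -0.17 (APP/PS1). A lower call thus needed a smaller distance from that median than a higher call, and the counts also depend on the CPM total. With S100a8, S100a9, mitochondrial and ribosomal genes left out of the CPM total, 186 genes were higher and 809 lower. The 12 lowest were Cd2ap, Pou2f2, Grk3, Filip1l, Cbfa2t3, Slc12a2, Ace, Lrp1, Ccdc50, Cd300e, Adgre4 and Bcl2. Adgre4 and Cd300e are receptors of monocytes, and Ace marks the nonclassical ones. Pou2f2, a transcription factor of lymphocytes and monocytes, had 22.9 CPM in the members, 121 CPM in the middle cells and 208 CPM in the lowest cells of the WT library, and 24.2, 112 and 116 CPM in those of the APP/PS1 library. Among marker-free cells it had too few UMIs to be tested, and its log2 ratio was -0.93 (WT) and -0.99 (APP/PS1) there, against -2.40 (WT) and -2.22 (APP/PS1) in all base cells. Ace had 10.5 CPM in members against 44.4 CPM in middle cells (WT) and 5.76 against 36.0 CPM (APP/PS1), and in marker-free cells, which were selected partly on Ace, its log2 ratio was -0.07 (WT) and -0.19 (APP/PS1). Of the 11 monocyte markers 10 were lower in all base cells, and in marker-free cells 4 could be tested, with Nr4a1 lower and Ly6c2 higher. Marker-free cells gave 378 lower genes of 4026 tested (9.39%). Of the genes lower in all base cells, 826 could be tested among marker-free cells, and 293 of these were called lower there too, while 2 (Cybb and Ptprj) were called higher. Of the higher genes, 91 could be tested and 48 were called higher in both. The part that monocyte-marked cells have in the remaining differences was not tested.

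**Figure D3:**
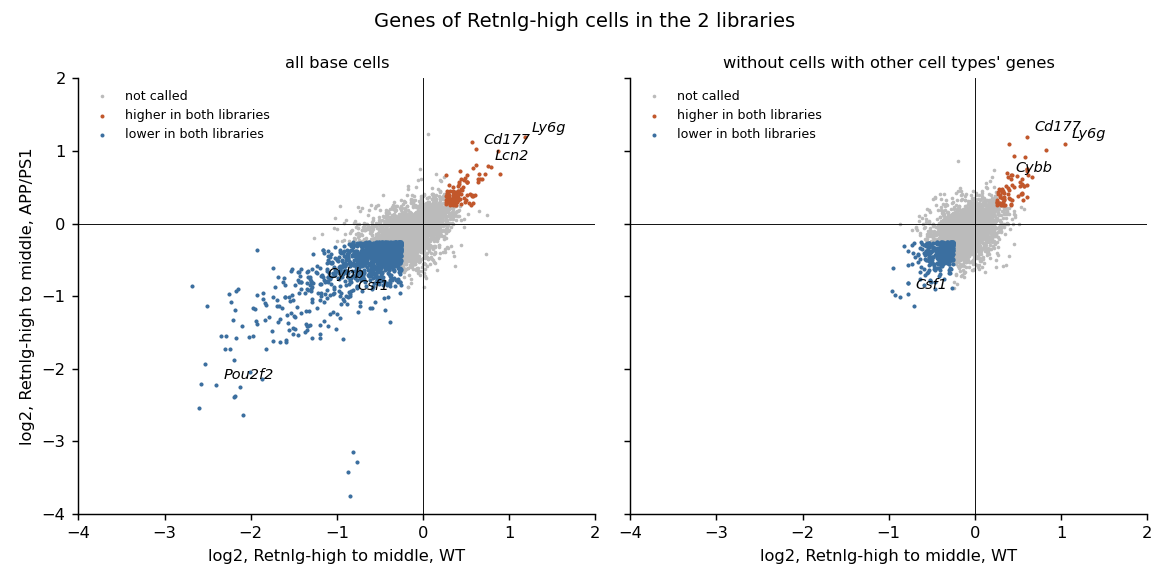
Log2 ratio of each gene between Retnlg-high and middle cells in WT (horizontal axis) and APP/PS1 (vertical axis), for all base cells (left) and marker-free cells (right), with genes called higher (orange) or lower (blue) in both libraries. The long arm of lower genes on the left, with Pou2f2 at -2.40 (WT) and -2.22 (APP/PS1), is shorter on the right, and Ly6g lies at the upper end in both panels.

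The 12 lowest genes among marker-free cells were Pmaip1, Lair1, Clec4n, Itgax, Csf1, Ppp1r15a, Dusp2, Gm2a, Znrf2, Isyna1, Zmiz1 and Anxa6, and all were called lower in all base cells too. This set was named after its values had been seen. Csf1, the macrophage growth factor that activated neutrophils can make, had 134 CPM in the members, 240.2 CPM in the middle cells and 277 CPM in the lowest cells of the WT library, and 162, 322 and 361 CPM in those of the APP/PS1 library. Its log2 ratio was -0.84 in WT (95% interval -0.97 to -0.72) and -0.99 in APP/PS1 (-1.11 to -0.88), and -0.77 (WT) and -0.97 (APP/PS1) in marker-free cells. Dusp2, a phosphatase that switches off MAP kinases, had 38.3 CPM in members against 77.0 CPM in middle cells (WT) and 36.1 against 99.2 CPM (APP/PS1). Pmaip1, a BH3-only protein that promotes cell death, had 33.4 CPM in members against 68.5 CPM in middle cells (WT) and 61.4 against 119.7 CPM (APP/PS1), and Ppp1r15a, a stress-induced phosphatase subunit, 161 CPM in members against 259 CPM in middle cells (WT) and 157 against 266 CPM (APP/PS1). Clec4n, the fungal receptor Dectin-2, had 16.7 CPM in members against 36.1 CPM in middle cells (WT) and 23.5 against 40.7 CPM (APP/PS1). Lair1, an inhibitory collagen receptor, had 24.7 CPM in members against 63.0 CPM in middle cells (WT) and 25.9 against 68.9 CPM (APP/PS1), and Itgax, the integrin CD11c, 17.1 CPM in members against 32.6 CPM in middle cells (WT) and 15.7 against 32.5 CPM (APP/PS1). In each of these genes both libraries had the lower value in the members.

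Of 14 cytokine and chemokine genes 11 were tested, of which 4 were lower (Ccl3, Ccl9, Csf1 and Ptgs2) and 1 higher (Ccl6). Of all genes, 25.0% were lower and 2.11% higher. Among marker-free cells 4 of 10 were lower (Il1b, Ccl3, Csf1 and Ptgs2) and none higher, where 9.39% of all genes were lower. Ccl9 could not be tested there, and its log2 ratio went from -1.33 (WT) and -0.66 (APP/PS1) to -0.20 and -0.07. Ccl3, a chemokine that activated neutrophils release, had 179 CPM in the members, 256 CPM in the middle cells and 259.9 CPM in the lowest cells of the WT library, and 227, 322 and 339 CPM in those of the APP/PS1 library, a log2 ratio of -0.52 in WT (95% interval -0.63 to -0.40) and -0.50 in APP/PS1 (-0.60 to -0.40). Ptgs2, cyclooxygenase-2, had a ratio of -0.30 (WT) and -0.40 (APP/PS1). Il1b, the most abundant cytokine mRNA in these cells, had 11856 CPM in the members, 13808 CPM in the middle cells and 14169 CPM in the lowest cells of the WT library, and 11841, 14298 and 15451 CPM in those of the APP/PS1 library. Its log2 ratio of -0.22 (WT) and -0.27 (APP/PS1) missed the limit in WT, and in marker-free cells it was -0.38 (WT) and -0.38 (APP/PS1), past the limit in both. Ccl6, a chemokine that mature neutrophils express constitutively, went the other way with 3485 CPM in members against 2699 CPM in middle cells (WT) and 3983 against 3056 CPM (APP/PS1), a call that was lost in marker-free cells at 0.22 (WT) and 0.28 (APP/PS1). Cxcl2, which recruits neutrophils through Cxcr2, differed little, at 4019 CPM in members against 3838 CPM in middle cells (WT) and 3061 against 2858 CPM (APP/PS1). Of 15 NF-kB members and feedback genes 14 were tested, of which 9 were lower in all base cells and 6 of 11 among marker-free cells, with none higher in either. Of all genes tested, 25.0% and 9.39% were lower in these settings. The median log2 ratio was -0.45 (WT) and -0.39 (APP/PS1), and -0.27 and -0.26 among marker-free cells. Nfkbia, the inhibitor that NF-kB itself induces, had 437 CPM in the members, 645 CPM in the middle cells and 709 CPM in the lowest cells of the WT library, and 461, 653 and 672 CPM in those of the APP/PS1 library, and Tnfaip3, the deubiquitinase A20, 57.2 CPM in members against 86.6 CPM in middle cells (WT) and 63.6 against 88.5 CPM (APP/PS1).

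Of 19 immediate early genes, all tested, 6 were lower and none higher, and among marker-free cells 7 were lower (Jun, Egr1, Atf3, Btg2, Dusp1, Dusp2 and Nr4a1). The first count is near the share over all genes, 25.0%, and among marker-free cells that share was 9.39%. The median of the list was -0.18 (WT) and -0.22 (APP/PS1), near that of all genes, -0.18 and -0.17. Among marker-free cells it was -0.23 and -0.28, and that of all genes -0.10 and -0.11. Egr1, a transcription factor induced within minutes of stimulation or of cell handling, had 1377 CPM in members against 1794 CPM in middle cells (WT) and 2359.8 against 3006 CPM (APP/PS1). Against the same 25.0% of all genes in all base cells, 8 of 13 survival genes were lower and none higher, which included Bcl2a1b, an anti-apoptotic protein, and Bcl2l11, Bax and Pmaip1, which promote death. Among marker-free cells 6 of 12 survival genes were lower, where 9.39% of all genes were, and Bcl2a1a, Bcl2a1d and Bak1 lost their calls. The median log2 ratio of the list was -0.63 (WT) and -0.36 (APP/PS1) in all base cells, and -0.26 and -0.26 among marker-free cells. Mcl1, which neutrophils need to survive, was not called, at 3490.4 CPM in members against 3571 CPM in middle cells (WT) and 3439.7 against 3759 CPM (APP/PS1). Of 12 class I antigen presentation genes 6 were lower and none higher, where 25.0% of all genes were lower and 2.11% higher. Among marker-free cells 3 of 12 were lower (B2m, H2-Q6 and H2-Q7), where 9.39% of all genes were. B2m, the light chain of class I molecules, had 1379.5 CPM in members against 1731 CPM in middle cells (WT) and 1441 against 1823 CPM (APP/PS1). Of 12 adhesion genes 6 were lower and Cd177 was higher, where 25.0% of all genes were lower and 2.11% higher. Among marker-free cells 3 of 10 tested were lower (Itgal, Itga4 and Itgax) and Cd177 was higher. There 9.39% of all genes were lower and 1.71% higher. Ceacam1 lost its call among marker-free cells. Icam1 and Pecam1 could not be tested there, with log2 ratios of -0.78 and 0.51 (WT) and -0.85 and -0.19 (APP/PS1). Of 17 interferon response genes tested 5 were lower in all base cells, and part of that list limited the base cells. This count is near the 25.0% over all genes. Among marker-free cells none of 14 tested was lower, but Bst2, Stat2 and Usp18, lower in all base cells, could not be tested there. Their log2 ratios there were -0.35, -0.18 and -0.41 (WT) and -0.41, -0.53 and -0.04 (APP/PS1).

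Of 10 chemoattractant receptors, which guide neutrophils, all were tested, and Fpr1 was higher and Ccrl2 lower, where 2.11% of all genes were higher and 25.0% lower. Among marker-free cells none was higher and Cxcr4, Ptafr and Ccrl2 were lower, where 9.39% of all genes were lower. The median log2 ratio was -0.08 (WT) and -0.08 (APP/PS1) in all base cells, and -0.19 and -0.15 among marker-free cells, where that of all genes was -0.10 and -0.11. Fpr1, which binds bacterial formyl peptides, had 146 CPM in members against 113 CPM in middle cells (WT) and 182 against 134 CPM (APP/PS1), and its log2 ratio among marker-free cells was 0.22 (WT) and 0.33 (APP/PS1), under the limit in WT. Cxcr2, the receptor that draws neutrophils out of the bone marrow, had 1376 CPM in members against 1315 CPM in middle cells (WT) and 1425 against 1473 CPM (APP/PS1), a log2 ratio of 0.07 (WT) and -0.05 (APP/PS1). Cxcr4, which holds neutrophils in the marrow and returns aged ones to it, had 608 CPM in members against 692 CPM in middle cells (WT) and 583 against 734 CPM (APP/PS1), and was called lower among marker-free cells at -0.29 (WT) and -0.37 (APP/PS1). Ccrl2, a receptor that binds chemerin and on which the study centred, had 195 CPM in the members, 259 CPM in the middle cells and 313 CPM in the lowest cells of the WT library, and 357, 513 and 608 CPM in those of the APP/PS1 library. Its log2 ratio was -0.41 in WT (95% interval -0.52 to -0.30) and -0.52 in APP/PS1 (-0.60 to -0.44), and -0.47 (WT) and -0.59 (APP/PS1) among marker-free cells. Csf3r, the receptor for granulocyte colony-stimulating factor, was not called in all base cells and was lower among marker-free cells, at -0.26 (WT) and -0.29 (APP/PS1).

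Ribosomal, mitochondrial and haemoglobin genes were lower in all base cells and mostly lost their calls among marker-free cells. The ribosomal list was drawn by name and took in 4 tested S6 kinases. Without them, 72 of 79 ribosomal protein genes were lower, where 25.0% of all genes were, with a median log2 ratio of -0.77 (WT) and -0.49 (APP/PS1). Among marker-free cells 11 of 78 were, where 9.39% of all genes were, with medians of -0.17 and -0.19. Of 11 mitochondrially encoded genes 10 were lower, with a median of -0.83 (WT) and -0.32 (APP/PS1), and among marker-free cells none of 9 was, with medians of -0.01 and 0.15. Hbb-bs, a beta globin, had 2641 CPM in members against 4817 CPM in middle cells (WT) and 439 against 4698 CPM (APP/PS1), and among marker-free cells its log2 ratio was 0.02 (WT) and 0.03 (APP/PS1). At least 50 haemoglobin UMIs were found in 15 members of WT and 6 of APP/PS1. The counts that follow stand beside 2.11% of all genes higher and 25.0% lower in all base cells. Glycolysis (0 of 16 tested genes called either way, median 0.10 (WT) and 0.08 (APP/PS1)) and the actin cytoskeleton (0 higher and 2 lower of 17) had few or no calls. Of the 7 genes of the NADPH oxidase Cybb alone was called. Of the remaining lists, the 9 secretory vesicle and surface receptor genes tested had Fpr1 higher, the 6 annexins Anxa11 higher and Anxa5, Anxa6 and Anxa7 lower, and the 6 ferritin and iron genes no call in all base cells. The 9 transcription factors of granulopoiesis tested had Runx1 and Irf8 lower, near that 25.0%, the 4 nuclear noncoding RNAs Gm42418 higher and Neat1 and Xist lower, and the 8 neutrophil identity genes tested Ly6g and Mmp9 higher. Of the genes named here from the vesicle, annexin, transcription factor, noncoding RNA and identity lists, Ly6g, Anxa6 and Neat1 kept their calls among marker-free cells, Irf8 could not be tested there, and the others were not called.

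**Figure D4:**
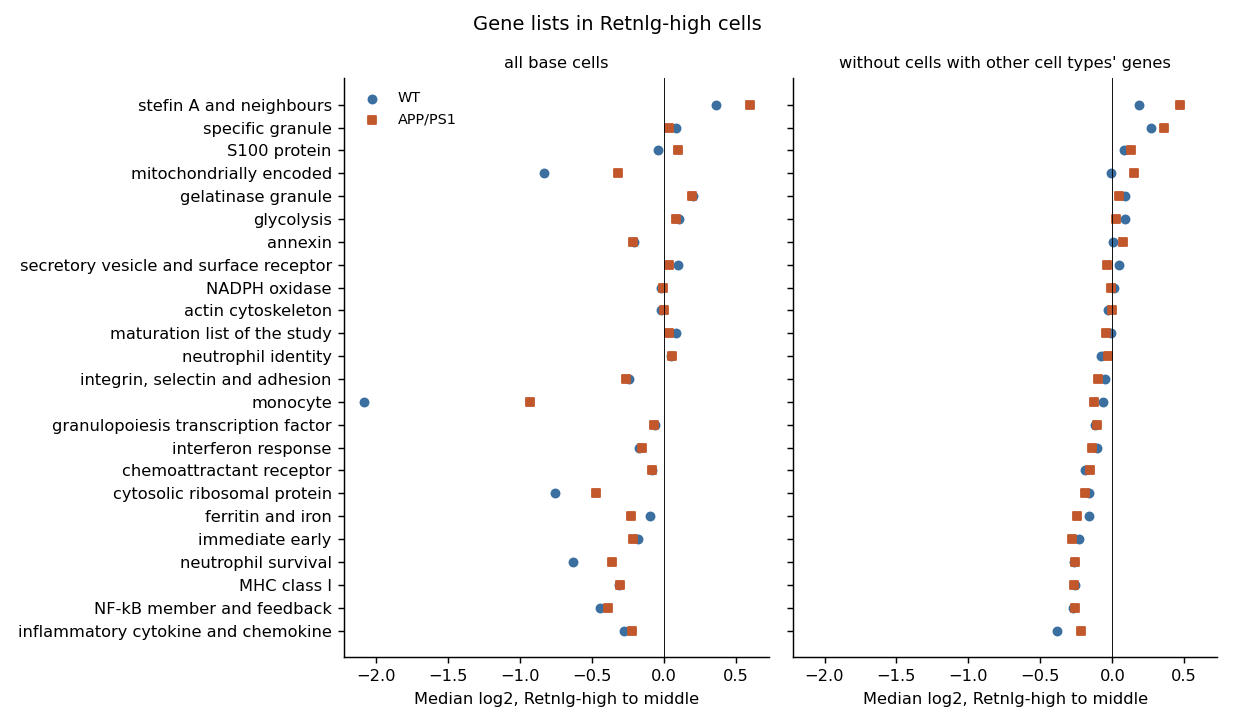
Median log2 ratio between Retnlg-high and middle cells (horizontal axis) over the tested genes of each list, in WT (circles) and APP/PS1 (squares), for all base cells (left) and marker-free cells (right). Stefins lie highest on the left, NF-kB and cytokine genes lie below 0 in both panels, and the monocyte list moves from -2.09 in WT on the left to -0.06 on the right, where 4 of its genes remain.

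When marker-free base cells were ordered by Retnlg and divided into 10 equal groups, Ly6g was 10.2 times as high in the highest group as in the lowest in WT and 7.21 times in APP/PS1. It stepped up in 8 of 9 steps in each library. Lcn2 was 3.15 times as high in WT and 2.71 times in APP/PS1, Mmp8 3.11 and 4.31 times, and Lyz2 2.36 and 2.97 times. Of the 9 steps, Lcn2 stepped up in 9 and 8, Mmp8 in 9 and 6 and Lyz2 in 8 and 9 (WT and APP/PS1). In the opposite direction, Il1b was 1.97 times as high in the lowest group as in the highest in WT and 1.79 times in APP/PS1, and stepped down in 9 and 8 of 9 steps. Ccl3 was 2.47 and 2.08 times as high in the lowest group, and Nfkbia 2.51 and 1.92 times. Ccl3 stepped down in 7 and 7 of 9 steps and Nfkbia in 7 and 7. Cxcr2 differed little, at 1.10 and 1.11 times as high in the lowest group. Csf3r was 1.47 and 1.51 times as high in the lowest group and stepped down in 8 and 7 of 9 steps. Median depth also rose along the range, from 2168 to 3048 UMIs in WT and from 2314 to 3253 in APP/PS1. When cells were ranked within 10 strata of UMIs, the 12 highest genes stayed past the limit in both libraries.

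**Figure D5:**
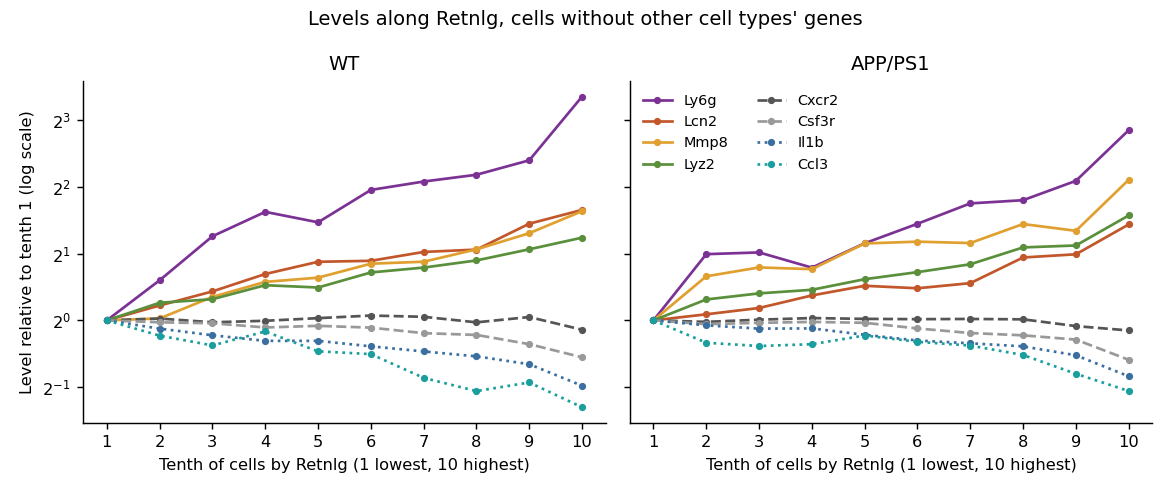
Level of 8 genes relative to the lowest group (vertical axis, log scale) across 10 equal groups of marker-free base neutrophils ordered by Retnlg (horizontal axis), in WT and APP/PS1. Ly6g, Lcn2, Mmp8 and Lyz2 climb, and Cxcr2 stays near its start. Il1b, Ccl3 and, less steeply, Csf3r decline to the right in both libraries, and the Retnlg-high cells are at the right end.

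The spread among the Retnlg-high cells was read cell by cell. In marker-free members thinned to 1000 UMIs, the variance of counts between cells was divided by their mean, a ratio of 1 being what counting alone gives. The ratio lies nearer 1 in genes of low mean for the same relative spread, so it does not rank genes by how much their level varied. Over the 228 genes with a mean of at least 0.5 UMIs in both libraries, the median ratio was 1.16 in WT and 1.14 in APP/PS1. Apart from genes of the rule, among which S100a9 and S100a8 had higher ratios, Cxcl2 had the highest, at 6.15 in WT and 6.88 in APP/PS1, and at least 1 UMI of it was found in 74.8% and 62.9% of members. Wfdc17, Cstdc4, Ifitm1 and Gm42418 followed. Cstdc4 had ratios of 5.29 and 5.17, and a UMI of it in 21.4% and 26.1% of members against 19.4% and 25.0% of middle cells. Cxcl2, Wfdc17 and Ifitm1 had ratios about as high among the middle cells. Among genes higher in the members, the ratio was 1.47 and 1.42 for Mmp8 and 1.71 and 1.72 for Wfdc21, and 3.13 and 3.34 for Lcn2. At this depth Ly6g was found in 20.7% of members and 11.8% of middle cells in WT, and in 17.4% and 8.96% in APP/PS1. A cell without a UMI of Cstdc4 or Ly6g is not shown to lack the mRNA at 1000 UMIs.

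Retnlg-high cells of the APP/PS1 library differed from those of WT in few genes. Of 3598 genes tested with at least 200 UMIs in the members of both libraries together, 95 were higher in APP/PS1 by at least 0.5 on the log2 scale (2.64%) and 117 lower (3.25%). Each count moved in 5 alternative settings, up in some and down in others, and the values are given below with the processing. With 1 library a genotype, a difference between mice, library preparation or genotype cannot be told apart. The genes that led the Retnlg-high cells differed by less. Ly6g had 315 CPM in members of WT against 264 CPM in members of APP/PS1, a log2 ratio of APP/PS1 to WT of -0.26 (-0.37 to -0.15). That of Lcn2 was -0.30 (-0.34 to -0.26), of Mmp8 -0.14 (-0.21 to -0.07) and of Wfdc21 -0.16 (-0.21 to -0.11). Of the 104 genes higher in members than in middle cells, 90 were tested between the genotypes, of which 3 were higher and 8 lower in APP/PS1. Of the 12 highest genes Stfa1 alone passed 0.5 between the genotypes, with 139 CPM in members of WT against 221 CPM in members of APP/PS1, 74.8 and 137 CPM in middle cells and a log2 ratio of 0.67 (0.53 to 0.82) in members.

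The 8 highest in APP/PS1 members were Cd3d, Plekhn1, Cstdc5, Edem2, Igkc, Rnase6, Stfa2 and Commd7. Igkc, an antibody light chain gene of B cells, had 14.2 CPM in members of WT against 35.5 CPM in members of APP/PS1, and its log2 ratio among marker-free members was 0.48, under the limit. Cd3d, a subunit of the T cell receptor complex, had 54 UMIs in WT members and 225 in APP/PS1 members, and 8.04 and 48.9 CPM in middle cells, while the 8 T cell markers listed above together had 8.24 and 11.7 CPM in the members. Edem2, which guides misfolded glycoproteins to degradation, had 24.3 CPM in members of WT against 65.8 CPM in members of APP/PS1, and Rnase6, an antimicrobial ribonuclease, 31.6 CPM in members of WT against 74.3 CPM in members of APP/PS1. Cstdc5 and Stfa2, of the stefin cluster, stood out in the members and less in the middle cells. Cstdc5 had 34.7 CPM in members of WT against 104 CPM in members of APP/PS1, and 33.3 and 44.4 CPM in middle cells. Stfa2 had 14.5 CPM in members of WT against 32.4 CPM in members of APP/PS1, and 7.62 and 8.70 CPM in middle cells. The 8 lowest were Hbegf, 4 globin genes (Hbb-bt, Hba-a1, Hbb-bs and Hba-a2), Cd14, Tgm2 and Rnf125. Hbegf, an EGF-family growth factor, had 339 UMIs in WT members and 4 in APP/PS1 members, and 66.2 and 2.31 CPM in middle cells. Cd14, the co-receptor for lipopolysaccharide, had 1103 CPM in members of WT against 333 CPM in members of APP/PS1, and 952 and 325 CPM in middle cells. Over all base cells the globin genes differed in members and little in middle cells. Hbb-bs had 2641 CPM in members of WT against 439 CPM in members of APP/PS1, and 4817 and 4698 CPM in middle cells. Among marker-free cells Hbb-bs differed alike in both sets, so this contrast was not particular to members there. It had 546 (WT) and 303 CPM (APP/PS1) in marker-free members, a log2 ratio of -0.85, and 538 and 297 CPM in marker-free middle cells. Of the 95 genes higher in APP/PS1 members, 26 passed the same limit in middle cells, and of the 117 lower, 59 did. The share of all genes past this limit in middle cells is not given. These counts therefore do not show that the other differences were particular to members.

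Retnlg-high cells were selected as the same share of base neutrophils in both libraries, so this share cannot differ between them. To compare how many cells were high, a common level of 167 UMIs per 10000 was used, at or above which lay 25% of base neutrophils as the mean of both libraries. In WT 1511 of 5678 base neutrophils reached it, 26.6% (25.5% to 27.8%), and in APP/PS1 1285 of 5492, 23.4% (22.3% to 24.5%). The difference was -3.21 percentage points (-4.83 to -1.60, an approximate interval combined from the exact limits of both shares). It covers cells and not mice, and cannot be told apart from a difference between libraries.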

How the data were processed

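Neutrophils enriched from blood were sequenced on the 10x platform in 1 WT and 1 APP/PS1 library. The authors deposited raw UMI counts for 32285 genes and every barcode called a cell, made with Cell Ranger 5.0.0 on mm10 per the submitters' processing notes. Base neutrophils and their Retnlg ranks were taken from these counts by the stated rule, UMIs were summed over the cells of a set, and ratios of sums were given with exact conditional intervals (Python 3.11.15, numpy 2.4.6, scipy 1.17.1). No cell was removed as a doublet in the main setting, and an alternative left out the highest 8% of Scrublet scores (scanpy 1.11.5). Named genes were the 12 highest and 12 lowest by the ratio nearer 0 of both libraries, leaving out genes of the selection, and 8 at each end between genotypes, with members of 35 gene lists. The ratios, their intervals and the calls of members against middle cells were tested on summed counts simulated with counting error only. The choice and ranking of cells were not simulated. The members, lists and motifs were chosen with earlier results of these data known. Some genes of the lists are not reported here. Alternatives changed the ranking, the cells, the comparison cells, the scaling and the filter on genes.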

Additional observations from a re-analysis of the deposited data

Results flagged for a closer look

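Some genes differed between Retnlg-high and middle cells in opposite directions in the libraries. This held for 14 of 4938 genes past 0.25 on the log2 scale, and the difference between the libraries was not tested. In 2 of them the 95% intervals left out 0 in both libraries, and 12 had opposite signs among marker-free cells too. By the smaller of both ratios the first 3 were Hist1h2ac, Hopx and Dcaf10, and the intervals left out 0 in both libraries for Hopx and Lonrf1. The log2 ratio of Hist1h2ac was 0.73 (WT, interval 0.31 to 1.14) and -0.42 (APP/PS1, interval -0.86 to 0.01), and that of Dcaf10 0.37 (WT, interval -0.07 to 0.80) and -0.59 (APP/PS1, interval -1.09 to -0.11). That of Hopx was -0.47 (WT, interval -0.81 to -0.14) and 0.39 (APP/PS1, interval 0.09 to 0.69). Among marker-free cells the ratio of Hopx was above 0 in both libraries, at 0.50 (WT) and 0.63 (APP/PS1), but it had too few UMIs to be tested there. That of Lonrf1 was 0.36 (WT, interval 0.06 to 0.65) and -0.45 (APP/PS1, interval -0.89 to -0.03), and 0.24 (WT) and -0.50 (APP/PS1) among marker-free cells.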

How the results depend on the processing

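The 12 highest genes stayed past 0.25 in both libraries in all 14 alternatives in which each was computed (168 values), and the 12 lowest did in 148 of 168. The other settings moved counts of called genes. Members and middle cells ranked within 10 strata of UMIs gave 62 higher and 756 lower genes and 176 lower in APP/PS1, and UMI ratios of 1.001 in WT and 0.999 in APP/PS1. Selection on one part of the UMIs, read in the other, gave 733 lower genes and 55 higher in APP/PS1. Cells within the 5th to 95th percentile of genes and UMIs gave 690 lower, and the mean over cells 703. CPM without S100a8, S100a9, mitochondrial and ribosomal genes gave 186 higher and 809 lower. Without cells that had at least 3 UMIs of other cell types' markers, 39 were higher and 105 lower of fewer genes tested, with 48 higher and 49 lower in APP/PS1 and UMI ratios of 1.16 and 1.15. Against the lowest cells 222 were higher, with UMI ratios of 1.27 and 1.24, and against all other base cells the ratios were 1.16 and 1.14. The top 10% of cells gave 45 higher and 58 lower in APP/PS1. A minimum of 50 UMIs a gene gave 172 higher and 2495 lower, and 387 and 339 between genotypes, and a minimum of 1000 gave 53, 339, 17 and 31. Without monocyte-marked cells 395 genes were lower, and among marker-free cells 69 were higher and 378 lower, both chosen after seeing the data.

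Some of the lowest genes had a positive log2 ratio in 1 or both libraries where marked cells were left out. Without cells with other cell types' markers, it was 0.84 (WT) and -0.36 (APP/PS1) for Cd2ap, 1.65 (WT) and 0.12 (APP/PS1) for Cbfa2t3, -0.03 (WT) and 1.44 (APP/PS1) for Slc12a2, 1.26 (WT) and -0.56 (APP/PS1) for Ace, 1.01 (WT) and 0.86 (APP/PS1) for Lrp1, -1.74 (WT) and 0.86 (APP/PS1) for Cd300e and 0.97 (WT) and -1.14 (APP/PS1) for Adgre4, where each had at most 15 UMIs over members and middle cells in the library with fewer. Without monocyte-marked cells it was 0.34 (WT) and -0.30 (APP/PS1) for Cbfa2t3, -0.30 (WT) and 0.27 (APP/PS1) for Slc12a2 and 0.18 (WT) and 0.15 (APP/PS1) for Lrp1. Among marker-free cells the libraries had opposite signs, with 0.32 (WT) and -0.34 (APP/PS1) for Cbfa2t3, -0.16 (WT) and 0.33 (APP/PS1) for Slc12a2, 0.25 (WT) and -0.02 (APP/PS1) for Lrp1 and -1.59 (WT) and 0.22 (APP/PS1) for Bcl2. The median of the mitochondrially encoded genes, as the mean of both libraries, became 0.206 without other cell types' markers and 0.0694 among marker-free cells, where that of the red cell markers was 0.0455. These settings remove such cells by construction, and other causes were not tested. The difference in the share above a common level stayed between -4.51 and -2.56 percentage points.

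No paired analysis was possible because each genotype has 1 library. Pooled mice leave no measure of differences between mice, and depth limits genes under 200 UMIs.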
